A study of Homo sapiens with 12 samples.

Results

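Expression of the pregnane X receptor PXR (gene symbol NR1I2), its partner RXRA, the P450 reductase POR and 6 cytochrome P450 genes outside the CYP1 family (CYP3A4, CYP3A5, CYP2S1, CYP2J2, CYP2W1 and CYP4F12) was followed in HT29 cells treated with a water extract of Aconitum carmichaeli Debeaux (ACD). The 9 genes were matched by symbol to the Ensembl IDs of the count table, which lists 60675 IDs. Of the 15374 genes that passed the filter on low counts, 6 were members (RXRA, POR, CYP3A5, CYP2S1, CYP4F12 and CYP2W1). NR1I2, CYP3A4 and CYP2J2 did not pass it and are given as counts without a test. The question was whether P450 genes other than those of the CYP1 family rose with the extract.

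HT29 cells are an established human line of a colorectal adenocarcinoma, so all groups share the genotype of 1 tumour line. The cells were kept for 24 h with vehicle (DMSO) or with ACD at 20 (low dose), 100 (medium dose) or 500 µg/mL (high dose), with 3 libraries in each of the 4 groups. By the treatment note, the extract was dissolved in phosphate-buffered saline with 2% DMSO. Nothing in the labels says that the 3 libraries of a group came from separate cultures, so p-values measure only the spread between these libraries, which may be technical.

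PXR is a nuclear receptor that binds drugs, plant compounds and bile acids, pairs with a retinoid X receptor and raises genes of drug metabolism, among which CYP3A4 in the liver and small intestine is the best known. The CYP1 genes answer to a different sensor, the aryl hydrocarbon receptor (AhR). Most microsomal P450 enzymes take their electrons from the reductase encoded by POR.

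The letters that PXR is known to bind can be seen in the CYP3A promoters, which are shown with that of CYP1A1 for contrast. The windows come from RefSeq (GRCh38.p14) and run from 250 bases before to 50 bases after a transcript start, 5′ to 3′ on the strand of the gene. They lie on the minus strand at chr7:99784135-99784434 (CYP3A4), chr7:99679947-99680246 (CYP3A5) and chr15:74725479-74725778 (CYP1A1). Capitals mark the everted repeat TGAACT, any 6 bases, AGGTCA in both CYP3A genes, and GCGTG, the core of the AhR response element, in CYP1A1.
CYP3A4: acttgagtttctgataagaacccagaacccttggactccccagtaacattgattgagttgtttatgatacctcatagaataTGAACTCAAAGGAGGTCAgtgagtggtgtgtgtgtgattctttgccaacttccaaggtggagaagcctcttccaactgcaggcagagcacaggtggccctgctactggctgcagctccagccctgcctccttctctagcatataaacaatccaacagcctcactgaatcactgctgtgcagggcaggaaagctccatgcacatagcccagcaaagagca
CYP3A5: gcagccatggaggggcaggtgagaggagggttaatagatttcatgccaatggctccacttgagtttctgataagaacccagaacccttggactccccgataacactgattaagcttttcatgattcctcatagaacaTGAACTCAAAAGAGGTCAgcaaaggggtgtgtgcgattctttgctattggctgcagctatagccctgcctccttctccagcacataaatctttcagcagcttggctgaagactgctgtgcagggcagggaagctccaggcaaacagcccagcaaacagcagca
CYP1A1: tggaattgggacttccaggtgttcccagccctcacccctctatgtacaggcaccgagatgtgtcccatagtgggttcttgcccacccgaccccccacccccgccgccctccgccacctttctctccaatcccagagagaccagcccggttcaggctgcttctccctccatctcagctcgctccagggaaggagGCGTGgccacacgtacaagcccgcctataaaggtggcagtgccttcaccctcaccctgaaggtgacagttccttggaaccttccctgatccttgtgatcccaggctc

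The repeat begins 169 bases before the start of CYP3A4 and 113 bases before that of CYP3A5. Searched on both strands, it was found in 3 of the 35116 promoters of the table (0.00854%), 2 of which were these CYP3A promoters. GCGTG was found in 36.5% of promoters, so it is a common match. AGGTCA, which is contained in the repeat, was found in 13.8%. The table holds a window for 7 of the 9 members and for 40 of 57 P450 genes. It holds none for POR or CYP4F12, so their promoters were not searched. A match describes the letters of the window and is not a measured binding site.

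The libraries held 15941255 to 33866644 expected counts, with a median of 23833237. High-dose replicate 2 stood apart. The SD of its log2 differences from the other libraries of its group was 0.50 over 10626 genes above 5 CPM (counts per 1e6 counts of the library, scaled with TMM), against 0.10 to 0.29 in the other 11 libraries, and it held counts for 19578 genes against 21423 to 23242. Results at the high dose are therefore given with and without it. The 2 mitochondrial ribosomal RNAs took 11.3 to 12.5% of counts in the high-dose libraries and 0.98 to 2.2% in the others. The part of this shift in the results was not tested, and the change of library size given with CYP4F12 does not decide it. All 10 markers of colon epithelium were detected and tested, KRT8 at a mean of 6438 CPM in vehicle cells, and among them CEACAM5 rose at the high dose (0.70 on the log2 scale, adjusted p = 0.0132) while VIL1 stood at -0.21 (adjusted p = 0.0744, or 0.00587 with DESeq2). Only APOH passed the filter among 8 hepatocyte markers, of which APOA2 and F9 had no count. Of 6 immune markers LYZ, CD14 and CD68 were tested, while PTPRC had 4 counts in all. At the high dose CD68 rose (0.57, adjusted p = 0.0151), while LYZ stood at -0.17 (adjusted p = 0.508) and CD14 at -0.19 (adjusted p = 0.702). LYZ had a mean of 1712 CPM in vehicle cells. Without high-dose replicate 2 it fell by 0.36 at the high dose (adjusted p = 0.00263), in a fit that passed 18.7% of all tested genes there. Of 6 fibroblast and endothelial markers COL1A1 (368 counts) and PECAM1 (569 counts) were tested and did not pass at any dose, while COL1A2 had no count. The part of these markers in the results was not tested. Because RNA was taken in bulk, fewer expressing cells and less RNA per cell cannot be told apart.

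At the high dose, 5.77% of all tested genes had an adjusted p under 0.05 against vehicle, the limit used here for "rose" or "fell", and 2.82% rose. The share was 1.01% at 100 µg/mL and 0.124% at 20 µg/mL. Of the 6 members tested, CYP4F12 rose at the high and medium doses, and no member fell at any dose. At the low dose 0 members passed with edgeR or with DESeq2, and 2 of them (CYP3A5 and CYP4F12) had an unadjusted p under 0.05. Without high-dose replicate 2, the share of tested genes that passed became 18.7%, 6.87% and 2.03% from the high to the low dose, and the members that rose became 3, 2 and 1 respectively.

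NR1I2, the gene of PXR itself, was barely detected. It had 55 counts in all 12 libraries, at most 9 in one. Its levels were 0.165, 0.0909 and 0.308 CPM in the vehicle libraries, 0.137, 0.317 and 0.134 at 20 µg/mL, 0.230, 0.196 and 0.328 at 100 µg/mL and 0.135, 0 and 0.123 at 500 µg/mL. Each dose group overlapped with vehicle. The medium-dose libraries all lay above the high-dose libraries, a difference that was not tested. In 5 of the 12 libraries it had 3 counts or none, and a count of 0 allows up to 3 counts, or 0.0909 to 0.212 CPM here.

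The summed NR1I2 counts were 13 with vehicle and 7 at the high dose, a ratio of 0.578 with a 95% interval of 0.195 to 1.56. The ratio was 1.41 (0.659 to 3.10) at 100 µg/mL and 1.14 (0.514 to 2.58) at 20 µg/mL. These intervals cover counting error only, and a difference was not detectable at this depth. Per kilobase of transcript, NR1I2 stood at 0.067 CPM in vehicle cells, where RXRA stood at 32.4.

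RXRA, the retinoid X receptor that PXR pairs with, was expressed in every library. Its levels were 172, 186 and 179 CPM with vehicle, 189, 206 and 187 at 20 µg/mL, 219, 203 and 218 at 100 µg/mL, and 218, 130.0 and 219.8 at 500 µg/mL. The low and medium groups lay wholly above vehicle. The high-dose libraries lay on both sides of it, because replicate 2 was lowest of all 12 and replicate 3 highest.

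With all libraries the log2 fold change of RXRA was 0.08 ± 0.15 (SE) at the high dose, with an adjusted p of 0.834 (edgeR). The medium dose gave 0.25 ± 0.15, with an adjusted p of 0.587. Without high-dose replicate 2, RXRA rose at both doses, by 0.29 ± 0.06 (adjusted p = 0.00284) at the high dose and by 0.25 ± 0.05 (adjusted p = 0.00959) at the medium dose. At the medium dose RXRA also rose in the fits of vehicle and that dose alone, with edgeR and with DESeq2. The other 18 of 21 alternatives did not call it there. Its sign at the high dose turned to -0.03 without replicate 1 and to -0.04 without replicate 3.

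POR, the electron donor of most microsomal P450 enzymes, stayed close to its vehicle level. It stood at 87.5, 81.0 and 82.7 CPM with vehicle, 78.0, 83.1 and 89.6 at 20 µg/mL, 87.1, 76.1 and 84.5 at 100 µg/mL and 85.4, 76.9 and 82.5 at 500 µg/mL. Each dose group overlapped with vehicle. The fold change at the high dose was 0.976 with a 95% interval of 0.868 to 1.10 (adjusted p = 0.859), and that interval lay within 1.5 times the vehicle level in both directions. TMEM120A overlaps POR on the opposite strand, with 9621 counts in all, and the strand setting of the counting is not given in the sources used here.

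Nor did the other electron donors pass. A list of 9 tested genes held the donors (cytochrome b5, its reductase, the ferredoxins, their reductase and POR) and the related proteins PGRMC1 and PGRMC2. None of them passed at any dose with edgeR or DESeq2, and none had an unadjusted p under 0.05. Their median log2 fold change at the high dose was -0.05, against 0.01 for all tested genes. By p at 500 µg/mL the first 4 were FDXR at -0.21 (adjusted p = 0.350), CYB5A at 0.20 (0.635), FDX2 at -0.14 (0.652) and CYB5R3 at -0.09 (0.659). After high-dose replicate 2 was left out, the mitochondrial ferredoxin FDX1 fell by 0.44 on the log2 scale (adjusted p = 0.00303) and CYB5B by 0.17 (adjusted p = 0.0421). These were 2 of the 9 genes, in a fit that passed 18.7% of all tested genes at the high dose, so the count was near that share.

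CYP3A4, the main drug-metabolising P450 of liver and the classical PXR target, was almost absent. It had 13 counts in the 12 libraries, of which 1 fell in the vehicle group, 4 at 20 µg/mL, 7 at 100 µg/mL and 1 at 500 µg/mL. At the medium dose its 3 libraries held 0.0459, 0.0979 and 0.123 CPM, against 0.0550, 0 and 0 with vehicle. The ratio of medium-dose to vehicle counts was 6.73, with an interval of 0.865 to 304 that includes no change. At the high dose the ratio was 1.07 (0.0137 to 84.3).

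CYP3A5, the member of the family that is widely expressed outside the liver, was the most abundant of the 6 P450 members per kilobase. Its levels were 80.1, 77.6 and 78.0 CPM with vehicle, 92.0, 92.9 and 83.5 at 20 µg/mL, 89.4, 89.7 and 86.2 at 100 µg/mL and 89.3, 81.8 and 86.0 at 500 µg/mL. All 9 treated libraries lay above all 3 vehicle libraries. The step was small and did not grow with dose. The fold change was 1.14 (95% interval 1.03 to 1.25) at 20 µg/mL, 1.13 (1.02 to 1.24) at 100 µg/mL and 1.09 (0.990 to 1.20) at 500 µg/mL.

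None of these CYP3A5 differences passed the test over all genes, with adjusted p-values of 0.460, 0.318 and 0.312 in that order. Leaving out high-dose replicate 2 gave 0.0721, 0.0578 and 0.0679. Of all tested genes, 11.4% had every library at 20 µg/mL above the vehicle libraries, 14.6% at 100 µg/mL and 10.6% at 500 µg/mL. Members tested that did so numbered 3, 4 and 2 of 6. Of the CYP3A genes whose promoters carry the everted repeat shown above, CYP3A5 thus did not pass at any dose and CYP3A4 could not be tested. CYP3A7, the fetal member of the family, had a log2 fold change of -0.14 (adjusted p = 0.920) at the high dose, on 32.9 to 42.4 counts per group.

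**Figure D1:**
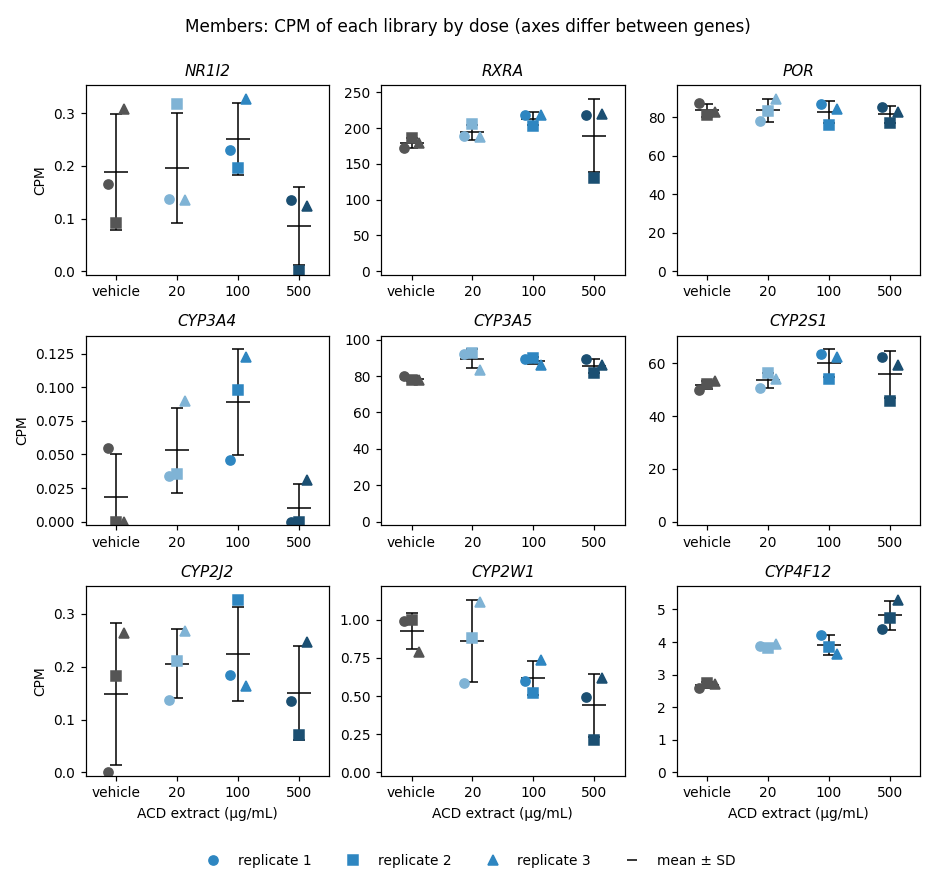
CPM (vertical axes, which differ between genes) of the 9 genes in each library by dose of ACD extract, with bars for the group mean ± SD over 3 libraries. CYP4F12 lay above vehicle in all treated libraries and highest at 500 µg/mL, RXRA and CYP2S1 were low in high-dose replicate 2 (130.0 and 45.5 CPM), and NR1I2, CYP3A4 and CYP2J2 stayed at or below 0.328 CPM.

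CYP2S1, an extrahepatic P450 found in epithelia and described elsewhere as a target of AhR, stood at 50.03, 52.0 and 53.2 CPM with vehicle, 50.5, 56.2 and 53.9 at 20 µg/mL, 63.5, 54.1 and 62.5 at 100 µg/mL and 62.5, 45.5 and 59.2 at 500 µg/mL. The medium group lay above vehicle. At the high dose replicates 1 and 3 lay above it and replicate 2 below. The log2 fold change was 0.11 ± 0.11 (adjusted p = 0.640) at the high dose and 0.21 ± 0.11 (adjusted p = 0.488) at the medium dose. When high-dose replicate 2 was left out, CYP2S1 rose by 0.23 ± 0.07 at the high dose (adjusted p = 0.0335) and had an adjusted p of 0.0602 at the medium dose. Without replicate 1 or 3 of the high dose the value there was 0.024 (adjusted p = 0.930) or 0.067 (0.806).

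CYP2J2, an epoxygenase of arachidonic acid, had 58 counts in all. The groups held 12 (vehicle), 16 (low), 18 (medium) and 12 (high) counts, or 0 to 0.326 CPM per library, and overlapped throughout. The ratio of high-dose to vehicle counts was 1.07 (0.441 to 2.61).

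CYP2W1, which is known for its expression in colorectal tumours, was low and was the member with the most negative change. It stood at 0.991, 1.00 and 0.791 CPM with vehicle, 0.584, 0.881 and 1.12 at 20 µg/mL, 0.597, 0.522 and 0.737 at 100 µg/mL and 0.495, 0.212 and 0.615 at 500 µg/mL. The medium and high groups lay wholly below vehicle, as did 14.1% and 11.5% of all tested genes. On 3 to 33 counts per library, the log2 fold change was -0.95 ± 0.34 at the high dose (adjusted p = 0.132) and -0.59 ± 0.32 at the medium dose (adjusted p = 0.515), neither of which passed. The trend over the 4 dose ranks was -0.33 per step (adjusted p = 0.0721), where 5.74% of all tested genes passed.

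CYP4F12, an enzyme of the CYP4 family that hydroxylates fatty acids and antihistamines in the intestine, was the member that rose. It stood at 2.59, 2.73 and 2.72 CPM with vehicle, 3.88, 3.81 and 3.94 at 20 µg/mL, 4.22, 3.85 and 3.64 at 100 µg/mL and 4.41, 4.74 and 5.29 at 500 µg/mL. All 9 treated libraries lay above the vehicle libraries, and the lowest high-dose library (4.41) lay above the highest library of the other 2 doses (4.22). The group means were 2.68 ± 0.0804, 3.88 ± 0.0670, 3.91 ± 0.294 and 4.82 ± 0.442 CPM (SD, n = 3).

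The fold change of CYP4F12 was 1.80 at 500 µg/mL (95% interval 1.52 to 2.13, adjusted p = 7.80e-04), 1.45 at 100 µg/mL (1.22 to 1.72, adjusted p = 0.0472) and 1.44 at 20 µg/mL (1.22 to 1.71, adjusted p = 0.120). The size at 20 µg/mL was thus nearly that at 100 µg/mL, although only the latter passed. The trend was 0.25 per dose rank on the log2 scale (adjusted p = 0.00327). Once high-dose replicate 2 was left out, it passed at all 3 doses, with an adjusted p of 2.71e-04, 0.0169 and 0.0392 from high to low. With library sizes that left out the mitochondrially encoded genes, its log2 fold change at the high dose was 0.85, as with them. TMM, used in both fits, trims genes with extreme changes, so the value could move little. No conclusion on the mitochondrial shift is drawn from it. Over 21 other settings the adjusted p ranged from 0.0169 to 0.220 for the medium dose, where 5 kept the call, and from 1.97e-05 to 0.0396 for the high dose, where all 21 kept it.

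To see whether CYP4F12 stood alone, all 57 human P450 genes were examined in the same fit. Of these, 46 had a count and 23 were tested. CYP1A1 passed the filter on low counts only through its treated libraries. Those that rose at the high dose numbered 5, namely CYP1A1, CYP1B1, CYP4F12, CYP4F3 and CYP4F11. Those at 100 µg/mL numbered 3 (CYP1A1, CYP1B1 and CYP4F12), and those at 20 µg/mL 2 (CYP1A1 and CYP1B1). Of all tested genes, 2.82%, 0.572% and 0.0715% rose from the high to the low dose. No P450 gene fell at any dose with edgeR on all libraries, although 2, 1 and 1 genes were lower with an unadjusted p under 0.05 at the high, medium and low doses. DESeq2 on all libraries called 1 lower gene, CYP20A1, at 100 µg/mL. Without high-dose replicate 2, edgeR called CYP20A1 lower at the high and medium doses, where that fit passed 18.7% and 6.87% of all tested genes.

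Outside the CYP1 family, then, 3 of 21 tested genes rose at the high dose and 1 at the medium dose. All belong to subfamily CYP4F. Among all tested genes the share that rose was 2.82% at the high dose and 0.572% at the medium dose. Without high-dose replicate 2 the genes that rose were 4, 2 and 1 at the 3 doses from high to low, CYP2S1 being the addition at the high dose and CYP4F11 at the medium dose. That fit passed 18.7%, 6.87% and 2.03% of all tested genes, in either direction. The median log2 fold change over the 21 genes at the high dose was -0.0017, near that of all genes. The 18 that did not pass ranged from -0.95 to 0.67 at the high dose, with no adjusted p below 0.114.

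**Figure D2:**
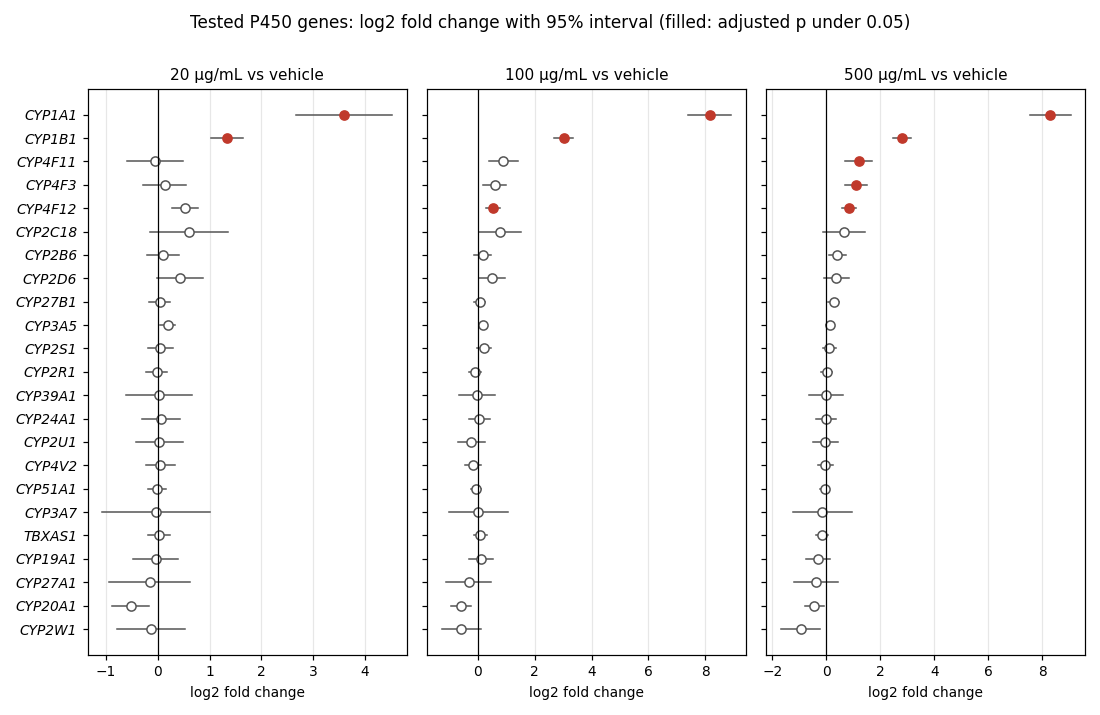
Log2 fold change against vehicle (horizontal axes, which differ between panels) with its 95% interval for the 23 tested P450 genes at each dose, ordered by the value at 500 µg/mL. Filled points passed an adjusted p under 0.05: 2 genes at 20, 3 at 100 and 5 at 500 µg/mL, with CYP1A1 and CYP1B1 far beyond the 3 CYP4F genes.

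The summed level of the P450 genes outside the CYP1 family lay between 421.8 and 453 CPM in all 12 libraries. It was 434.7 ± 4.17 CPM with vehicle, 441 ± 7.47 at 20 µg/mL, 438 ± 1.12 at 100 µg/mL and 437 ± 15.7 at 500 µg/mL (SD, n = 3). The 3 CYP1 genes together went from 48.0 ± 4.02 to 124 ± 31.7, 476 ± 17.2 and 433.5 ± 29.5 CPM. At the medium dose, a family that made up the smaller part of P450 counts in vehicle cells thus exceeded all the others together in each library. This holds for CPM, which are not scaled for transcript length, and the sums were not compared per kilobase. Per kilobase at that dose, CYP1B1 stood at 74.0 CPM and CYP1A1 at 34.6, with CYP51A1 at 68.1, CYP3A5 at 51.4 and CYP2S1 at 23.0. CYP1A1 had a log2 fold change of 8.29 and CYP1B1 one of 2.81 at the high dose (adjusted p = 4.89e-08 and 5.54e-07). CYP1A2 did not pass the filter, with 0 counts with vehicle and 1, 8 and 11 counts at the rising doses. Without a filter on low counts it passed at the high dose (adjusted p = 0.0472).

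**Figure D3:**
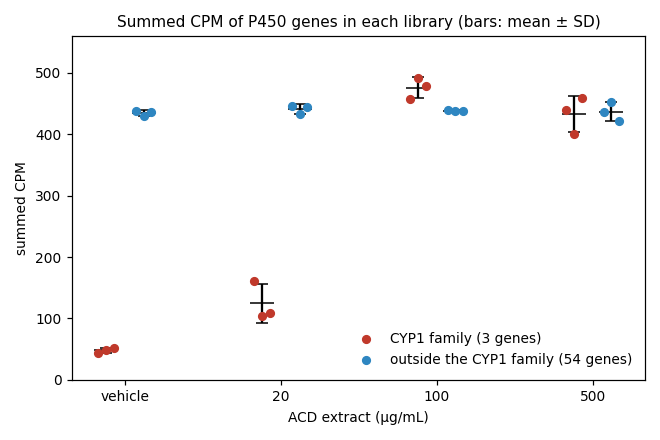
CPM summed over the 3 CYP1 genes and over the 54 other P450 genes in each library (points) with the group mean ± SD (bars), by dose. The CYP1 sum rose from 44.1 to 52.1 CPM with vehicle to 401 to 459 CPM at 500 µg/mL, while the sum of the others stayed between 421.8 and 453 CPM at that dose and between 429.9 and 437.5 CPM with vehicle.

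Most of the sum outside the CYP1 family came from genes that did not pass the test. In vehicle cells CYP51A1, the lanosterol demethylase of cholesterol synthesis, led with 71.4 CPM per kilobase, before CYP3A5 with 45.7, CYP2S1 with 19.8, CYP2R1 (a vitamin D 25-hydroxylase) with 6.84 and TBXAS1 (thromboxane synthase) with 6.80. The last pair cannot be put in order. CYP4F12 stood at 1.56, CYP2W1 at 0.399, CYP2J2 at 0.079 and CYP3A4 at 0.0066. The neighbour of CYP4F12 was CYP4V2 at 1.40, which ranged from 1.05 to 1.60 over all 12 libraries. CYP2J2 and CYP3A4 rest on too few counts to be ranked further.

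CYP20A1, an orphan P450 with no known substrate, ran the other way. It stood at 24.6, 17.1 and 17.4 CPM with vehicle, 14.6, 12.5 and 13.8 at 20 µg/mL, 11.6, 14.4 and 12.7 at 100 µg/mL and 13.3, 18.3 and 12.4 at 500 µg/mL. The low and medium groups lay below vehicle and the high group overlapped with it through replicate 2. With all libraries it did not pass, at -0.44 (adjusted p = 0.167) for the high, -0.60 (0.147) for the medium and -0.52 (0.402) for the low dose. In the fit that left out high-dose replicate 2, it fell by 0.60 at the high dose (adjusted p = 0.0116) and by 0.58 at the medium dose (adjusted p = 0.0167). Vehicle replicate 1 was its highest library, and without it the values were -0.25 (adjusted p = 0.462), -0.41 (0.491) and -0.34 (1.00) from the high to the low dose.

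The CYP4F genes hydroxylate long-chain fatty acids, leukotrienes and vitamin K, and lie close together on chromosome 19 (GENCODE release 44, GRCh38). CYP4F3 runs from 15640897 to 15662825 and CYP4F12 from 15673018 to 15697174 on the plus strand, and CYP4F11 from 15912367 to 15934867 on the minus strand. Of the 6 genes of the subfamily, 3 were tested and all rose at the high dose, where 2.82% of all tested genes did. They are the 3 genes outside the CYP1 family already called above, so this count is not a separate result. CYP4F2 had 18 counts in all, and CYP4F8 and CYP4F22 had none. The members of this subfamily are similar in sequence, so reads could be split between them, although the expected counts of CYP4F3, CYP4F11 and CYP4F12 were whole numbers in all 12 libraries.

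CYP4F3, which inactivates leukotriene B4, stood at 1.49, 1.27 and 1.36 CPM with vehicle, 1.34, 1.62 and 1.52 at 20 µg/mL, 2.20, 2.19 and 1.76 at 100 µg/mL and 3.02, 2.19 and 3.38 at 500 µg/mL. The medium and high groups lay above vehicle and the low group overlapped with it. The fold change at the high dose was 2.14 (95% interval 1.62 to 2.82, adjusted p = 0.00385). Its log2 fold change at 100 µg/mL was 0.59 ± 0.19 (adjusted p = 0.224).

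CYP4F11, which takes part in vitamin K breakdown, stood at 0.826, 1.15 and 0.791 CPM with vehicle, 0.927, 0.810 and 0.985 at 20 µg/mL, 1.97, 1.60 and 1.72 at 100 µg/mL and 2.84, 1.84 and 1.81 at 500 µg/mL. Here too the medium and high groups lay above vehicle and the low group overlapped. The fold change at the high dose was 2.29 (1.62 to 3.23, adjusted p = 0.00896), on 15 to 63 counts per library. At the medium dose the log2 fold change was 0.89 ± 0.23 (adjusted p = 0.109), which passed without high-dose replicate 2 (adjusted p = 0.0309).

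**Figure D4:**
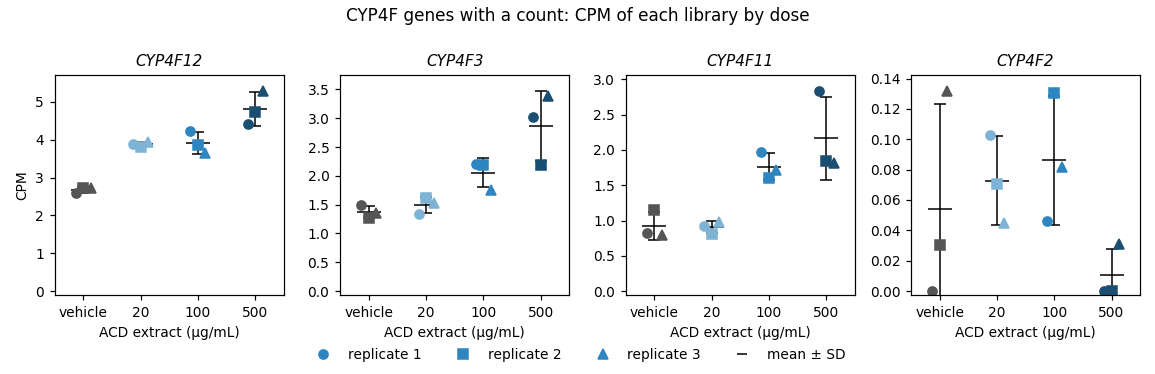
CPM of the 4 CYP4F genes with a count in each library by dose, with bars for the mean ± SD over 3 libraries and a separate vertical axis per gene. CYP4F12 was already above vehicle at 20 µg/mL (3.81 to 3.94 against 2.59 to 2.73 CPM), CYP4F3 and CYP4F11 lay above it at 100 and 500 µg/mL, and CYP4F2 stayed at or below 0.132 CPM.

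The shape over dose differed in value between these genes. In a direct contrast of the high with the low dose, chosen after seeing the data and passed by 2.98% of all tested genes, CYP4F11 was higher at the high dose by 1.26 ± 0.23 on the log2 scale (adjusted p = 0.00927) and CYP4F3 by 0.97 ± 0.18 (adjusted p = 0.0106). The difference for CYP4F12 was 0.32 ± 0.11 and did not pass (adjusted p = 0.163). Whether the 3 genes differ from each other in this respect was not tested. With vehicle and high-dose libraries alone in edgeR, CYP4F12 passed while CYP4F3 and CYP4F11 had adjusted p-values of 0.0712 and 0.116, with similar fold changes.

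Genes known to respond to PXR in other cells were examined as a list of 20, of which 19 were found in the table and 11 were tested. At the high dose 4 rose, where 2.82% of all tested genes did, and none fell, and the median log2 fold change of the 11 was 0.41 against 0.01 for all tested genes. ALAS1, the first enzyme of heme synthesis, rose by 0.86 (adjusted p = 2.93e-05), UGT1A6, a glucuronosyltransferase, by 0.81 (0.00156), and the transporters ABCC2 by 1.17 (0.0252) and ABCC3 by 0.50 (0.0336). Of these, ALAS1 (0.40, adjusted p = 0.0195) and UGT1A6 (0.66, adjusted p = 0.0199) also rose at 100 µg/mL, with a list median of 0.34. At the low dose 0 genes passed with edgeR or DESeq2, 2 had an unadjusted p under 0.05, and the median was 0.18.

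The levels of ALAS1 were apart in all 4 groups, although the difference at the low dose did not pass (0.25, adjusted p = 0.312) unless high-dose replicate 2 was left out (adjusted p = 0.0255). Its levels were 43.9, 44.4 and 48.5 CPM with vehicle, 53.9, 53.5 and 55.5 at 20 µg/mL, 59.4, 60.0 and 61.7 at 100 µg/mL and 77.0, 90.0 and 81.9 at 500 µg/mL, and no group overlapped with another. UGT1A6 stood at 43.3 to 45.1 CPM with vehicle, 44.6 to 49.9 at 20 µg/mL, 65.6 to 73.6 at 100 µg/mL and 63.2 to 93.5 at 500 µg/mL, of which replicate 2 was highest. It shares its last exons with the other UGT1A genes, and its expected counts were partly fractional.

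ABCC2 rested on 59 counts with vehicle and 122 at the high dose. Its levels were 0.440 to 1.00 CPM with vehicle and 1.27 to 2.21 at the high dose. ABCC3 was abundant at 417 to 462 CPM with vehicle and 485 to 710.4 at the high dose, where replicate 2 was lowest. When high-dose replicate 2 was left out, 5 genes of the list rose at the high dose, UGT1A1 being added (0.38, adjusted p = 0.00208). That fit had 4 higher at the medium dose (ALAS1, UGT1A6, ABCC3 and UGT1A1) and 2 at the low dose (ALAS1, and ABCC3 with an adjusted p of 0.0306). In it, 18.7%, 6.87% and 2.03% of all tested genes passed from the high to the low dose. Without vehicle replicate 1 or 3, or without high-dose replicate 1 or 3, the count of listed genes at the high dose was 2, namely ALAS1 and UGT1A6.

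As background, UGT1A6 and UGT1A1 are also known to respond to AhR, and ABCC2 and ABCC3 to the oxidative stress factor NRF2. Which receptor or factor, if any, the calls of this list go back to was not tested. In the same list, CYP2B6 went from a mean of 2.91 to 3.86 CPM, with a log2 fold change of 0.41 (adjusted p = 0.114), and ABCB1, the drug efflux pump, had one of -0.60 (adjusted p = 0.342).

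Partners and coregulators of PXR formed a list of 18 genes, of which 15 were tested. With edgeR 1 fell at the high dose, where 2.95% of all tested genes fell, and none rose. NR0B2 (SHP), a small nuclear receptor that represses others, fell by 0.82 on the log2 scale (adjusted p = 0.0244), from 4.30 to 6.49 CPM with vehicle to 2.43 to 3.47 CPM. The forkhead factor FOXA2 was next at -0.59 (adjusted p = 0.0659, or 0.0204 with DESeq2, which called both genes lower), followed by HNF4A at -0.25 (0.276) and DNAJC7 at 0.23 (0.366). At the medium and low doses 0 passed with edgeR or DESeq2, and 2 and 0 had an unadjusted p under 0.05.

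The median of that list was -0.06 at 500 µg/mL, 0.05 at 100 µg/mL and 0.07 at 20 µg/mL. Without high-dose replicate 2, RXRA, the vitamin D receptor VDR (0.32, adjusted p = 0.00201) and the mediator subunit MED1 (0.52, adjusted p = 8.23e-04) rose at the high dose, and NR0B2 and FOXA2 fell. At the medium dose the same fit had RXRA, VDR (0.22, adjusted p = 0.0260) and MED1 (0.34, adjusted p = 0.0197) higher and FOXA2 lower (-0.44, adjusted p = 0.0298). It passed 18.7% of all tested genes at the high dose and 6.87% at the medium dose. The call of NR0B2 at the high dose was lost without vehicle replicate 1 or 3 and without high-dose replicate 1 or 3. NR1I3 (CAR), the nearest relative of PXR, had 0 counts with vehicle and at most 5.18 expected counts in any group, and RXRG had none.

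Over the 12 libraries, the tested genes whose log2 CPM was most like that of CYP4F12 were OSBPL9 (Pearson r = 0.965), TLR6 (0.959) and IBTK (0.958). Those most like NR1I2 were TXNDC16 (0.872), RNF185 (0.869) and LINC02916 (0.859). These are descriptions over 12 libraries that share 4 treatments and differ in depth, and for NR1I2 they rest on 0 to 9 counts per library.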

How the data were processed

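Total RNA of 12 libraries was prepared with a directional kit and sequenced as paired ends on an MGI instrument. Reads were trimmed (Trim Galore) and aligned to GRCh38 (STAR) by the authors, who deposited the expected counts per gene of RSEM 1.3.3 (annotation GRCh38.84), which are not normalised. The methods and the submitters' processing notes name different versions of STAR (2.7.3a in the notes) and Trim Galore (0.6.5 in the notes), and the strand setting is not given in the sources used here. The treatment note names Poria cocos, whereas the titles and treatment field, which gave the groups, name ACD.

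Expected counts were rounded and tested with edgeR 4.0.16 (R 4.3.3) by its quasi-likelihood test after filterByExpr and TMM, with group as the only term over all 12 libraries and Benjamini-Hochberg adjustment over the genes tested. Standard errors came from the F statistic. A trend used the dose rank. CPM values used TMM, without a prior count, and lengths were those of the canonical transcript in GENCODE release 44, which holds 98.1% of the IDs with a count. Low counts were compared by exact conditional Poisson intervals. Alternatives were DESeq2 1.42.0, fits of vehicle and 1 dose, other filters and size factors, a replicate block, a fold change over 1.5, each library left out and, chosen after seeing the data, library sizes without mitochondrial genes. Members and gene lists were chosen with earlier results of these data known. Named were the members, the CYP1 genes, P450 genes that passed at any dose, the most abundant other P450 genes, up to 4 genes of each other list by their p at 500 µg/mL, and the 3 genes most like NR1I2 and CYP4F12. CYP20A1 is one of the abundant genes; FDX1, CYB5B, VDR, MED1, CYP4V2, UGT1A1, CYP2B6, ABCB1 and CYP3A7 were named after their values were seen.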

Additional observations from a re-analysis of the deposited data

How the results depend on the processing

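CYP4F12 at the high dose kept its direction and its call under all 21 alternatives, and CYP4F3 and CYP4F11 under 20 of 21 each. With edgeR on vehicle and 1 dose alone, the genes that passed at the high dose numbered 181 of all, 3 P450 genes, 1 outside the CYP1 family and 1 PXR target. That setting gave 624 genes, 2 members (CYP4F12 and RXRA) and 2 P450 genes outside the CYP1 family at the medium dose. At the low dose it gave 84 genes. DESeq2 on vehicle and 1 dose alone gave 525, 786 and 183 genes from the high to the low dose. It gave 2 PXR targets at the high dose and RXRA, not CYP4F12, as the only member at the medium dose. At the low dose it gave 1 P450 gene outside the CYP1 family (CYP20A1, lower). DESeq2 on all libraries gave 363 genes and 0 members at the medium dose and 109 genes at the low dose. Without a filter on low counts, 44 genes passed at the low dose and 0 members and 0 P450 genes outside the CYP1 family at the medium dose. With at least 10 counts in every library, 1 P450 gene passed at the low dose. A minimum fold change of 1.5 left 451 genes at the high dose and 47 in the trend, where it applied per dose rank, and 0 members and 0 P450 genes outside the CYP1 family at the medium dose. In these cases the cause was not tested. By construction, fewer libraries entered the fits of vehicle and 1 dose, fewer genes the setting with at least 10 counts, and more genes the fit without a filter.

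Same-numbered libraries did not deviate together, with a correlation over 0.1 in 5 of 18 pairs (median -0.077), so the numbers were not taken as pairs. With the replicate block, 629 genes passed at the high dose and 91 at the medium dose, 2 PXR targets passed at the high dose, and 0 members and 0 P450 genes outside the CYP1 family passed at the medium dose, where CYP4F12 had 0.54 (adjusted p = 0.115).

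When each library was left out in turn, the count of genes ranged from 433 to 2934 at the high dose, from 59 to 1077 at the medium dose, from 10 to 318 at the low dose and from 452 to 2744 in the trend. Members that passed ranged from 1 to 3, 0 to 2 and 0 to 1 at the 3 doses from high to low, P450 genes from 5 to 7, 2 to 5 and 2 to 3, P450 genes outside the CYP1 family from 3 to 5, 0 to 3 and 0 to 1, and PXR targets at the high dose from 2 to 5. The highest counts of each came without high-dose replicate 2. RXRA at the high dose ranged from -0.039 (without high-dose replicate 3) to 0.29 (without replicate 2), with -0.031 without replicate 1, and POR from -0.068 to 0.0062 (without high-dose replicate 2). Depth limited NR1I2, CYP3A4 and CYP2J2, which no setting with a filter on low counts could test.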
